A study of Mus musculus with 4 samples.

Results

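Imprinted genes are transcribed mainly from 1 parental copy, and a list of 38 of them was read out in immortalized mouse dermal fibroblasts (imMDFs) with and without LAP2alpha, the nucleoplasmic lamin-binding protein encoded by *Tmpo*. The genes were chosen by name, as members of known imprinted domains, with earlier results of these data known. They were found through the RefSeq symbols of the transcript identifiers (IDs) in the count tables. An ID without a symbol, such as that of *H19*, was named from a supplementary list of the study. All 38 genes had an ID, 75 of the 32757 IDs in all, and each gene is described by its ID with the most reads. Of the list, 23 genes are known to be expressed from the paternal and 15 from the maternal allele, in 17 domains or single loci.

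RNA depleted of ribosomal RNA was sequenced from *Tmpo* KO imMDFs (Lap2alpha -/-) and *Tmpo* WT imMDFs (Lap2alpha +/+), each once at passage 34 (the first replicate) and once at passage 42 (the second). Both genotypes were immortalized, and the KO cells lack exon 4 of *Tmpo*. Each genotype is given as 1 cell line, so that genotype and line cannot be told apart, and whether the 2 passages were grown as independent cultures is not said. The p-values therefore measure only the spread between these libraries. The reads came from both alleles together, so a level says nothing about which parental copy was transcribed, and fewer expressing cells and less RNA per cell cannot be told apart.

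Transcripts were given 15786136 and 19603812 reads in the KO libraries of passages 34 and 42, and 12168433 and 15677378 reads in the WT libraries. Levels are CPM, which divides each count by the reads given to transcripts in that library, with factors from the trimmed mean of M values (TMM), and compare 1 gene between libraries only. *Tmpo*, on its ID with the most reads (NM_011605), was at 0.368 and 0.31 CPM in KO, against 75.7 and 84.2 CPM in WT. The log2 fold change of this ID was -7.86 ± 0.34 (SE, edgeR's quasi-likelihood test, adjusted p = 1.26e-06), in the direction that the labels give. *Tmpo* also encodes other LAP2 isoforms, such as LAP2beta, so this level is not that of the whole gene. Of 10 fibroblast markers 9 were tested and 8 did not pass, and *Thy1* was higher in KO, with 20957 and 14838 reads in KO against 3743 and 4307 reads in WT (log2 fold change 1.80, adjusted p = 0.00469). The summed level of the fibroblast markers was 11400 and 15600 CPM in KO, against 13700 and 12800 CPM in WT, and *Pdgfrb* had no reads on its main ID.

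Imprinting is set in the germ line, where DNA methylation marks the control region of a domain in eggs or in sperm, and the mark survives the reprogramming of the early embryo with the help of the zinc finger protein ZFP57 and its partner TRIM28. In many domains 1 control region sets the expression of several genes at once, often through a long noncoding RNA or through insulation of an enhancer by CTCF. Paternally expressed genes often promote and maternally expressed genes often restrain growth of the fetus and placenta, and many of both are turned down in tissues after birth.

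The promoters of 3 genes whose levels passed the test are printed here, because the differentially methylated region of *Peg3* covers its promoter and because the 3 windows differ widely in their content of CpG, the dinucleotide that carries the mark. Each run of 300 bases (250 before and 50 after the annotated start) is from RefSeq on GRCm38.p6, written 5′ to 3′ on the gene's strand, with CpG dinucleotides in capitals.
Peg3, chr7:6730370-6730669, minus strand: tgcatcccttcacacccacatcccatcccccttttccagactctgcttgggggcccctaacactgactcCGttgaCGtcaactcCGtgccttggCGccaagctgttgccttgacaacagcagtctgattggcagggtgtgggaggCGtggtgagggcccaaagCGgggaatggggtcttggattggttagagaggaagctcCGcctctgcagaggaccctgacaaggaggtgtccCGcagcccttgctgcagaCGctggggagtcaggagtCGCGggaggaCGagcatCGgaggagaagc
Grb10, chr11:12037371-12037670, minus strand: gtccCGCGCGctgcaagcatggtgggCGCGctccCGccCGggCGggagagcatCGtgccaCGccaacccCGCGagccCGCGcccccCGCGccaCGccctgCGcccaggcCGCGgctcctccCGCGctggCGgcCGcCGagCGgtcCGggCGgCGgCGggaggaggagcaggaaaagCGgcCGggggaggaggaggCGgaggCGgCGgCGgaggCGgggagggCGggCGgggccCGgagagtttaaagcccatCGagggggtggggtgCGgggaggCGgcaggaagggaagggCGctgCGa
Slc38a4, chr15:97020310-97020609, minus strand: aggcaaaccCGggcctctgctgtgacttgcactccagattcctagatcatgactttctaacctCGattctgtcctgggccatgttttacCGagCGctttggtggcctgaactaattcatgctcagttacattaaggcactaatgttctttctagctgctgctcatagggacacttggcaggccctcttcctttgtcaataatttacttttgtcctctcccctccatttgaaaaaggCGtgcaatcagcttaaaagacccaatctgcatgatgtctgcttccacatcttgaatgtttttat

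The *Peg3* window held 13 CpG and overlapped by 263 bases with that of *Usp29*, which is transcribed the other way. The *Grb10* window held 45 CpG, and a second *Grb10* start had 9. The *Slc38a4* window shown is the start farthest inside the gene and held 5, as did the windows of its 2 other starts. RefSeq windows were found for 30 of the genes (47 windows), whose median was 11 CpG, against 7 over all 32851 windows. The motif TGCCGC, which ZFP57 binds when methylated, was searched on both strands and lay in 10 windows of 9 genes (21.3%, against 11.6% of all windows). This motif holds a CpG, in which the windows of these genes were richer, and the shares were not adjusted for that. Overlapping windows of *Mest* also count separately. The *Grb10* window shown and the *Plagl1* window had 1 match each, and the *Peg3* and *Slc38a4* windows had none. The motif of YY1, GCCATNTT, lay in 3 windows (6.38%, against 6.05% of all), among them the *Slc38a4* window shown but not the windows of its 2 other starts. These matches are letters in a window and say nothing of binding or of methylation in these cells, which were not measured here.

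Of the 38 genes, 26 had at least 1 CPM in both libraries of a genotype and were tested. In KO, 2 were higher (*H19* and *Grb10*) and 2 were lower (*Slc38a4* and *Peg3*), and 22 did not pass an adjusted p of 0.05. This was 15.4% of the tested genes, against 2.75% of all 13855 transcripts tested (1.51% higher and 1.24% lower). Each gene counts by its ID with the most reads, while the share over all transcripts counts every tested ID. The list was also chosen with earlier results of these data known, so the shares are not a test of it. With passage added to the fit, 5 genes were higher, 5 were lower and 1092 of all transcripts passed. All other values here are without passage. At an unadjusted p under 0.05 the numbers were 8 of 26 genes and 12.8% of all transcripts. The median log2 fold change was 0.11 over the 26 genes and 0.02 over all transcripts, and 15 fold changes were positive and 11 negative. Both KO libraries lay above both WT libraries for 7 genes and below for 5, and the groups overlapped for the other 14. Of all transcripts, 41.9% had groups that did not overlap, 21.9% above and 19.9% below. Of the 26 genes, 21 passed the minimum level in both genotypes. *Zim1*, *Ascl2*, *Asb4* and *Magel2* passed it through KO only and *Ndn* through WT only, so these 5 entered the test through 1 genotype.

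**Figure D1:**
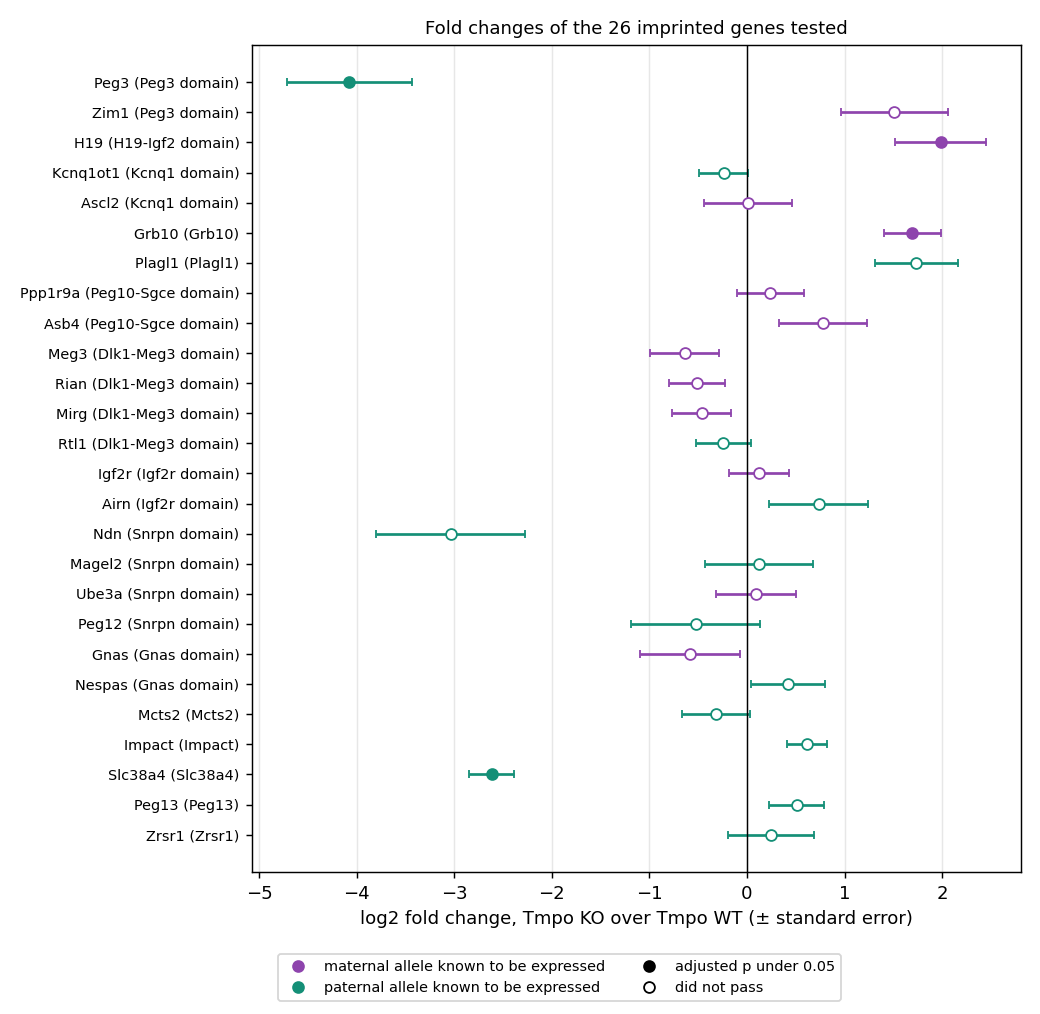
Log2 fold change of the 26 tested imprinted genes, *Tmpo* KO over *Tmpo* WT, with the standard error as bars, 1 row per gene with its domain. Filled points (*Peg3*, *H19*, *Grb10* and *Slc38a4*) passed an adjusted p of 0.05 and open points did not, and the colours give the allele known to be expressed.

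By parental allele, 12 maternally expressed genes were tested, and 2 were higher in KO (*H19* and *Grb10*) and 10 did not pass. Their median log2 fold change was 0.11. Of 14 paternally expressed genes tested, 2 were lower (*Peg3* and *Slc38a4*) and 12 did not pass, with a median of -0.06. Both KO libraries were above both WT libraries for 4 maternally and 3 paternally expressed genes, and below for 2 and 3. The classes give the allele known to be expressed, and allelic expression in these cells was not measured. The maternal class includes *Ube3a*, which is maternally expressed in neurons, and *Gnas*, read on 1 of its 9 IDs. The difference between the 2 classes was not tested.

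*Slc38a4*, a sodium-coupled transporter of neutral amino acids that is paternally expressed in the placenta, was lower in KO, with the smallest SE of the 4 genes that passed. *Slc38a4* (NM_027052, chr15:96825254-96886387 on mm9, minus strand) had 1072 and 940 reads in KO at passages 34 and 42, against 4545 and 5024 reads in WT. That was 65.8 and 48.6 CPM in KO, against 381 and 319 CPM in WT, so that the genotypes were far apart at both passages. The means were 57.2 ± 12.1 CPM in KO and 350 ± 43.7 CPM in WT (SD, n = 2 each, edgeR's test below). The log2 fold change was -2.61 ± 0.23 (SE, edgeR's quasi-likelihood test, adjusted p = 2.11e-04), and KO minus WT was -2.53 at passage 34 and -2.71 at passage 42. Its neighbours *Slc38a1* and *Slc38a2*, which encode related transporters and are not imprinted, did not pass, with log2 fold changes of 0.58 and -0.17.

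*Peg3*, a paternally expressed zinc finger protein with effects on growth and maternal behaviour, fell in KO. *Peg3* (NM_008817, chr7:6656603-6683132 on mm9, minus strand) had 18 and 26 reads in KO, against 410 and 118 reads in WT, or 1.10 and 1.35 CPM in KO against 34.4 and 7.50 CPM in WT. The KO libraries were alike (1.22 ± 0.17 CPM) while the WT libraries differed widely (20.9 ± 19 CPM, SD, n = 2 each). The log2 fold change was -4.07 ± 0.64 (SE, edgeR's quasi-likelihood test, adjusted p = 0.00585). KO minus WT was -4.81 at passage 34 and -2.37 at passage 42. Without the WT library of passage 34, which held most of the WT reads, the log2 fold change was -2.60 (adjusted p = 0.0464). A fit that leaves out a library has 1 library of that genotype, which is assumed to vary like those of the other genotype, and this holds wherever a library is left out.

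No other gene of the *Peg3* domain passed. *Usp29*, a paternally expressed ubiquitin protease gene that shares its promoter region with *Peg3*, had 0 reads in both KO libraries and 0 and 2 in WT, too few to compare. *Zim1*, a maternally expressed zinc finger gene 7.44 kb from *Peg3*, had 27 and 53 reads in KO, against 4 and 18 reads in WT. Its levels were 1.66 and 2.74 CPM in KO and 0.336 and 1.14 CPM in WT. Both KO libraries were above both WT libraries. With passage also in the fit its log2 fold change was 1.61 (edgeR's quasi-likelihood test, adjusted p = 0.0286). Without passage the log2 fold change of 1.51 ± 0.55 did not pass (SE, same test, adjusted p = 0.24). Leaving out 1 library moved it to between 0.94 (without the WT library of passage 34) and 2.68 (without that of passage 42), and it passed without the KO library of passage 34 (1.80, adjusted p = 0.0023).

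*H19*, the maternally expressed noncoding RNA of the *H19-Igf2* domain and host of miR-675, was higher in KO. *H19* (NR_001592, chr7:149761434-149764048 on mm9, minus strand) had 310 and 641 reads in KO, against 119 and 53 reads in WT, or 19 and 33.2 CPM in KO against 9.98 and 3.37 CPM in WT. In log2 CPM, KO minus WT of *H19* was 0.92 (passage 34) and 3.25 (passage 42). The means were 26.1 ± 9.99 CPM in KO and 6.68 ± 4.68 CPM in WT (SD, n = 2 each), with a log2 fold change of 1.98 ± 0.46 (SE, edgeR's quasi-likelihood test, adjusted p = 0.0465). The call was close to the threshold and was lost without the WT library of passage 42, when the log2 fold change was 1.37 (adjusted p = 0.127), and when 1 CPM was required in all 4 libraries (adjusted p = 0.0566) or counts were summed per gene (adjusted p = 0.0520). *Igf2*, the paternally expressed growth factor that shares enhancers with *H19*, had 5 and 5 reads on its main ID in KO, against 7 and 6 reads in WT, and a second ID had 4 and 6 in KO, against 1 and 2 in WT. Both IDs were below the minimum level, and *Igf2* was not tested.

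*Grb10*, an adaptor protein that dampens signalling of the insulin and IGF1 receptors and is maternally expressed outside the nervous system, also rose in KO. *Grb10* (NM_010345, chr11:11830511-11938686 on mm9, minus strand) had 633 and 969 reads in KO, against 202 and 167 reads in WT. The levels were 38.9 and 50.1 CPM in KO and 16.9 and 10.6 CPM in WT, and the groups did not overlap. The means were 44.5 ± 7.97 CPM in KO and 13.8 ± 4.47 CPM in WT (SD, n = 2 each). The log2 fold change was 1.70 ± 0.29 (SE, edgeR's quasi-likelihood test, adjusted p = 0.0101), with KO minus WT of 1.19 at passage 34 and 2.23 at passage 42. A second ID of *Grb10* (NM_001177629) had 25 and 23 reads in KO, against 6 and 8 reads in WT, and its log2 fold change of 1.41 did not pass (adjusted p = 0.189).

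*Plagl1* and *Ndn* differed by about as much but did not pass with genotype alone in the fit. *Plagl1* (NM_009538, chr10:12810497-12851500 on mm9, plus strand), a paternally expressed zinc finger transcription factor, had 198 and 379 reads in KO, against 80 and 46 reads in WT. It was at 12.2 and 19.6 CPM in KO and 6.71 and 2.93 CPM in WT. The log2 fold change was 1.74 ± 0.42 (SE, edgeR's quasi-likelihood test, adjusted p = 0.0574), with KO minus WT of 0.84 at passage 34 and 2.69 at passage 42. With passage also in the fit the log2 fold change was 1.78 (same test, adjusted p = 1.19e-05). Leaving out 1 library moved *Plagl1* to between 1.23 (without the WT library of passage 42, adjusted p = 0.314) and 2.44 (without the WT library of passage 34, adjusted p = 0.0548), and it passed without either KO library, at 2.05 and 1.35. *Ndn* (NM_010882, chr7:69493163-69494814 on mm9, plus strand), a paternally expressed MAGE family protein of the *Snrpn* domain, had 16 and 9 reads in KO, against 123 and 26 reads in WT. It was at 0.982 and 0.466 CPM in KO and at 10.3 and 1.65 CPM in WT. Its log2 fold change was -3.04 ± 0.76 (SE, same test, adjusted p = 0.0660), and -2.77 with passage also in the fit (same test, adjusted p = 6.28e-07). KO minus WT of *Ndn* was -3.24 at passage 34 and -1.59 at passage 42. As for *Peg3*, the WT library of passage 34 was the high one, and without it the log2 fold change of *Ndn* was -1.20 (adjusted p = 0.777), while *Ndn* passed without any 1 of the other 3 libraries (-3.85 to -2.57).

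**Figure D2:**
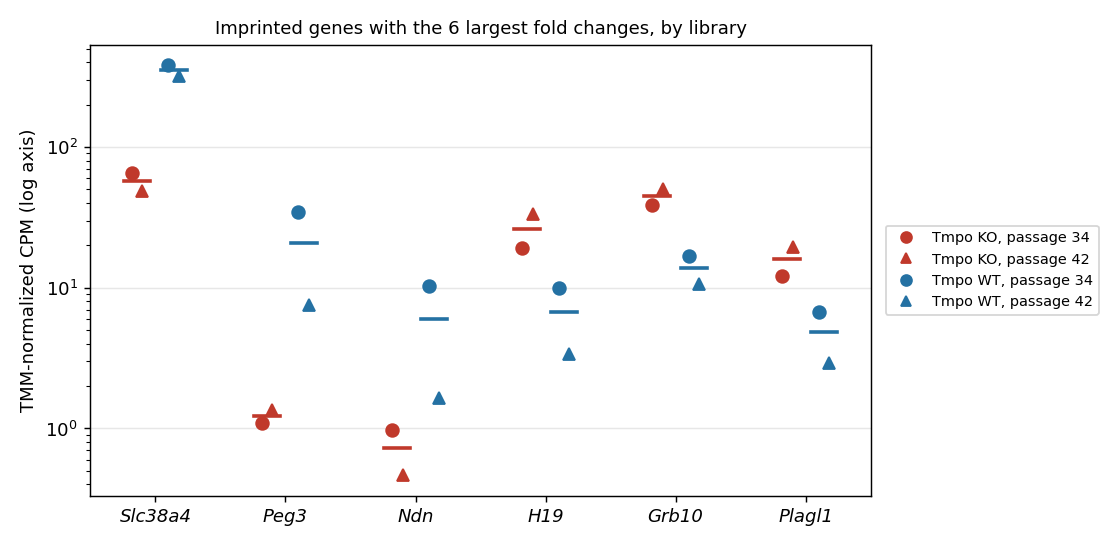
Levels of 6 imprinted genes (TMM-normalized CPM, log axis), with a point for each library and a bar for the mean of each genotype. *Slc38a4*, *Peg3* and *Ndn* were lower in both KO libraries than in both WT libraries, with *Peg3* and *Ndn* spread widely in WT, and *H19*, *Grb10* and *Plagl1* were higher in both KO libraries, with the wider gap at passage 42.

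**Figure D3:**
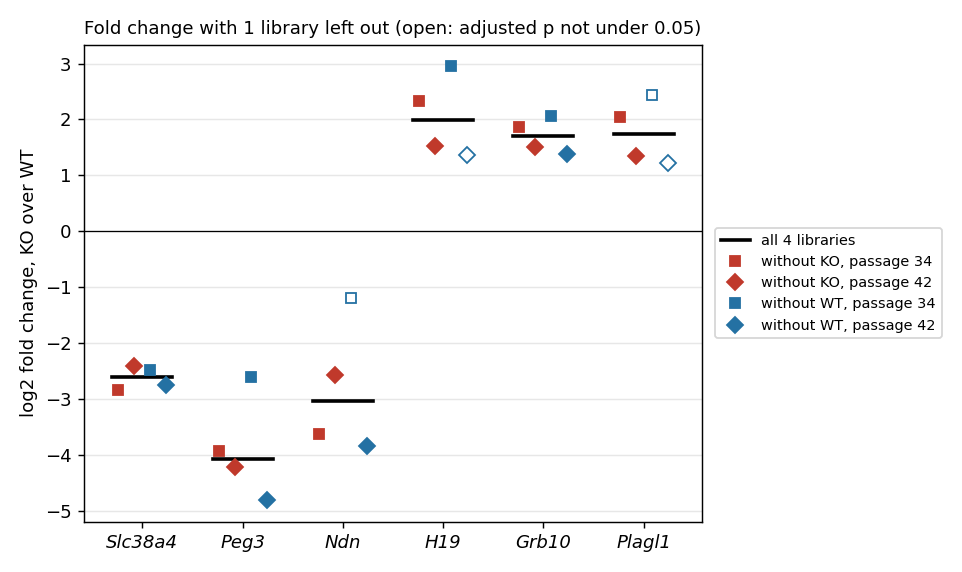
Log2 fold change, KO over WT, of the same 6 genes with 1 library left out at a time, with the value from all 4 libraries as a black line. *Slc38a4*, *Peg3* and *Grb10* stayed past the threshold in each case, while *Ndn* moved to -1.20 without the WT library of passage 34 and *H19* to 1.37 without the WT library of passage 42.

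In the *Kcnq1* domain next to *H19*, the paternally expressed noncoding RNA *Kcnq1ot1*, which silences its neighbours in cis, had the most reads of all the imprinted genes. *Kcnq1ot1* (NR_001461) had 44985 and 49241 reads in KO, against 31743 and 56496 reads in WT. The levels overlapped between the genotypes, at 2760 and 2550 CPM in KO and 2660 and 3590 CPM in WT, and the log2 fold change of -0.24 ± 0.25 did not pass (SE, edgeR's quasi-likelihood test, adjusted p = 0.813). The maternally expressed genes of this domain had few reads. *Ascl2*, a transcription factor of the placenta, had 22 and 20 reads in KO, against 18 and 14 reads in WT (log2 fold change 0.01 ± 0.45). *Cdkn1c*, an inhibitor of cyclin-dependent kinases, had 0 and 2 reads in KO and 2 and 0 in WT. *Phlda2*, which restrains placental growth, had 11 and 5 reads in KO and 10 and 6 in WT, and *Slc22a18*, a transporter, had 6 and 1 reads in KO and 0 and 2 in WT.

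The *Dlk1-Meg3* domain on chromosome 12 makes several long noncoding RNAs from the maternal allele, with many microRNAs and small nucleolar RNAs in their introns, and protein-coding genes from the paternal allele. *Meg3*, *Rian* and *Mirg* shared a pattern, in which the KO library of passage 34 was the lowest. *Meg3* (NR_003633) was at 45.0 and 114 CPM in KO at passages 34 and 42, against 104 and 144 CPM in WT. *Rian* (NR_028261), which hosts small nucleolar RNAs, was at 322 and 636 CPM in KO and 712 and 652 CPM in WT. *Mirg* (NR_028265), which hosts microRNAs, was at 19 and 36.5 CPM in KO and 36.8 and 39.8 CPM in WT. KO minus WT was -1.21, -1.14 and -0.95 at passage 34 and -0.33, -0.04 and -0.12 at passage 42 for the 3 RNAs in this order. None passed, with log2 fold changes of -0.64 ± 0.35, -0.51 ± 0.29 and -0.46 ± 0.30 (SE, edgeR's quasi-likelihood test, adjusted p = 0.527, 0.546 and 0.618). With passage also in the fit they were -0.77, -0.59 and -0.53 (same test, adjusted p = 0.00175, 0.0306 and 0.247). *Meg3* and *Rian* then passed, as did 1092 of all transcripts, against 381 without passage.

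The values rest on the KO library of passage 34. Without it the log2 fold changes of *Meg3*, *Rian* and *Mirg* were -0.12, -0.10 and -0.07 (adjusted p = 0.933, 0.955 and 0.971). Without the KO library of passage 42, with that low library as the only one of KO, they were -1.46, -1.09 and -1.01 (adjusted p = 2.47e-05, 0.0092 and 0.0192). The 3 lie in 1 domain and their values are not independent. *Rtl1*, a paternally expressed retrotransposon-like gene needed in the placenta, was at 15.2 and 21.0 CPM in KO and 19.4 and 23.5 CPM in WT, and its log2 fold change was -0.24 ± 0.28. Several microRNA genes, among them *Mir127* and *Mir136*, lie on the other strand of *Rtl1*. Second-strand cDNA was made with dUTP, but no source used here gives the strand setting of the counts. Whether the counts keep reads of both strands apart is therefore not known. *Dlk1*, a paternally expressed transmembrane protein that restrains adipocyte differentiation, had 13 and 16 reads on its main ID in KO and 5 and 9 in WT, and was not tested.

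In the *Snrpn* domain, the region deleted in Prader-Willi and Angelman syndromes in humans, *Ndn* was the gene with the largest difference (above). *Magel2*, a MAGE family protein next to it, was at 1.41 and 1.4 CPM in KO and 2.10 and 0.572 CPM in WT (log2 fold change 0.12 ± 0.55). *Peg12*, a regulator of Wnt signalling of the Frat family, was at 4.36 and 1.55 CPM in KO and 7.13 and 1.46 CPM in WT (-0.53 ± 0.66), and it passed without the KO library of passage 34 (-1.42, adjusted p = 0.0410). *Ube3a*, a ubiquitin ligase that is maternally expressed in neurons, was at 2.33 and 2.22 CPM in KO and 1.68 and 2.54 CPM in WT (0.10 ± 0.41). *Mkrn3*, a RING finger protein, had 13 and 18 reads in KO and 22 and 15 in WT, and *Snrpn*, a spliceosome protein, had 5 and 0 reads on its main ID in KO and 1 and 1 in WT. *Magel2*, *Peg12* and *Ube3a* overlapped between the genotypes, while *Ndn* was lower in both KO libraries. *Mkrn3*, which was below the minimum level and not tested, was at 0.798 and 0.931 CPM in KO and 1.85 and 0.954 CPM in WT. Its KO minus WT was -1.09 at passage 34 and -0.03 at passage 42, where the genotypes nearly met. Of all transcripts tested, 41.9% had groups that did not overlap. These contrasts within the domain were not tested.

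**Figure D4:**
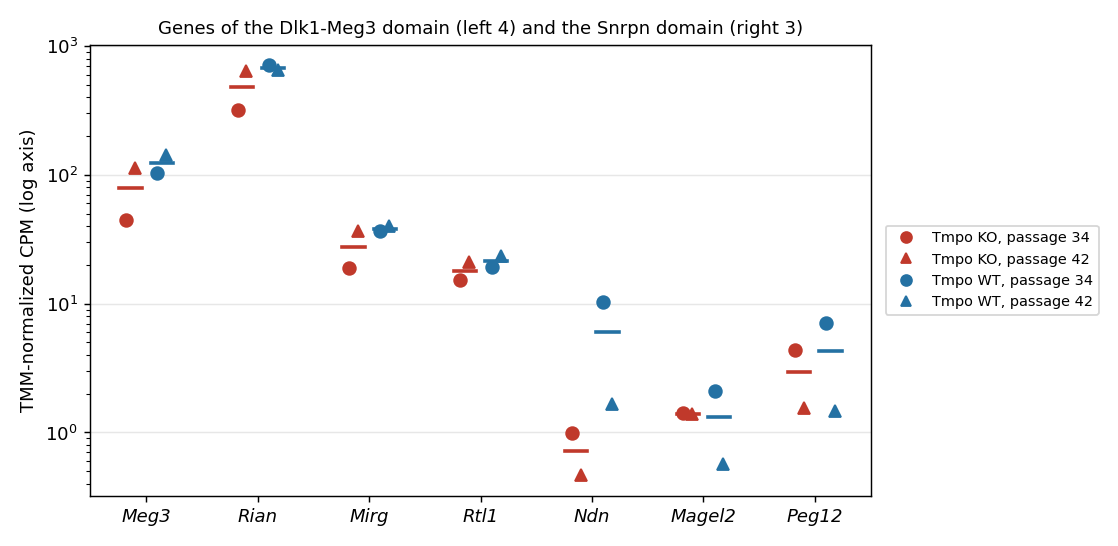
Levels of *Meg3*, *Rian*, *Mirg* and *Rtl1* of the *Dlk1-Meg3* domain and of *Ndn*, *Magel2* and *Peg12* of the *Snrpn* domain (TMM-normalized CPM, log axis), with a point for each library and a bar for the mean of each genotype. The KO library of passage 34 was the lowest of the 4 for the *Dlk1-Meg3* genes, and *Ndn* and *Peg12* were lower at passage 42 than at passage 34 in each genotype.

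Antisense pairs make up 2 further domains. *Igf2r*, the receptor that takes IGF2 to lysosomes, is maternally expressed and its antisense RNA *Airn* paternally. *Igf2r* was at 397 and 866 CPM in KO and 604 and 555 CPM in WT, with the lowest and the highest value both in KO (log2 fold change 0.12 ± 0.31). *Airn* was at 1.53 and 3.88 CPM on its main ID in KO and 1.26 and 1.97 CPM in WT (0.74 ± 0.51). Its 2 other tested IDs had negative fold changes, -1.12 ± 0.49 for NR_027772, with 6 and 15 reads in KO and 17 and 18 in WT, and -0.20 ± 0.43 for NR_027773, with 17 and 19 reads in KO and 15 and 17 in WT. With counts summed over its IDs *Airn* had a log2 fold change of 0.08. *Gnas*, the stimulatory G protein subunit, was at 2.39 and 2.28 CPM on its main ID in KO and 1.59 and 5.28 CPM in WT (-0.58 ± 0.51). It has 9 IDs in the tables, so reads in exons they share were not given to any of them, and this level is not that of the whole gene. *Nespas*, an antisense RNA of the domain, was at 8.10 and 11.0 CPM in KO and 4.87 and 9.35 CPM in WT (0.42 ± 0.38). None of these 4 passed edgeR's quasi-likelihood test, and the groups overlapped for each of them on its main ID. As for *Rtl1*, whether the counts keep the 2 strands apart is not known where *Airn* overlaps *Igf2r* and *Nespas* overlaps *Gnas*. The same limit holds where *Zrsr1* overlaps *Commd1*. *Kcnq1ot1* had no position in the annotation used, so genes on its other strand were not looked up.

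In the *Peg10-Sgce* domain, *Asb4*, part of a ubiquitin ligase complex, was at 1.41 and 1.24 CPM in KO and 0.923 and 0.636 CPM in WT, and its log2 fold change of 0.78 ± 0.45 did not pass (SE, edgeR's quasi-likelihood test, adjusted p = 0.556). *Ppp1r9a*, which binds actin and protein phosphatase 1, was at 11.2 and 7.14 CPM in KO and 7.05 and 8.39 CPM in WT (0.24 ± 0.34). *Peg10*, a retrotransposon-derived gene of the placenta, had no reads in any library, and *Sgce*, a sarcoglycan, had at most 2.

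The remaining genes were each the only gene of their locus on this list. *Impact*, a regulator of the translation kinase GCN2, was at 163 and 205 CPM in KO and 113 and 126 CPM in WT. Both KO libraries were above both WT libraries, and the log2 fold change of 0.62 ± 0.21 did not pass (SE, edgeR's quasi-likelihood test, adjusted p = 0.183). *Impact* passed with passage also in the fit. The noncoding RNA *Peg13* was at 23.3 and 30.8 CPM in KO and 15.8 and 22.1 CPM in WT, also without overlap (0.51 ± 0.28, adjusted p = 0.524). *Zrsr1*, a splicing factor gene that lies in an intron of *Commd1* on the other strand, was at 4.48 and 3.67 CPM in KO and 2.01 and 4.77 CPM in WT (0.24 ± 0.44). *Mcts2*, a retrogene inside *H13* on the same strand, was at 6.63 and 11.9 CPM in KO and 10.5 and 12.6 CPM in WT (-0.31 ± 0.35). *Mest*, a hydrolase, had at most 5 reads on its main ID, and *Nnat*, a membrane proteolipid, at most 8.

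The 12 genes below the minimum level had between 0 and 22 reads in a library, where 3 reads are between 0.153 and 0.247 CPM. Of these genes 10 have more than 1 ID, against 5 of the 26 tested, and reads in exons that such IDs share were not given to any of them. For these genes a low count is therefore not shown to be low expression of the gene. *Phlda2* and *Mkrn3* have 1 ID each.

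The differences between genotypes were unequal at the 2 passages for several genes. KO minus WT had opposite signs at passages 34 and 42 for 9 of the 26 genes, against 40.4% of all transcripts, and had the same sign for 17. Its median over the 26 genes was 0.16 at passage 34 and 0.02 at passage 42, against 0.01 and 0.01 over all transcripts. With 1 library per genotype and passage these differences have no test of their own.

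**Figure D5:**
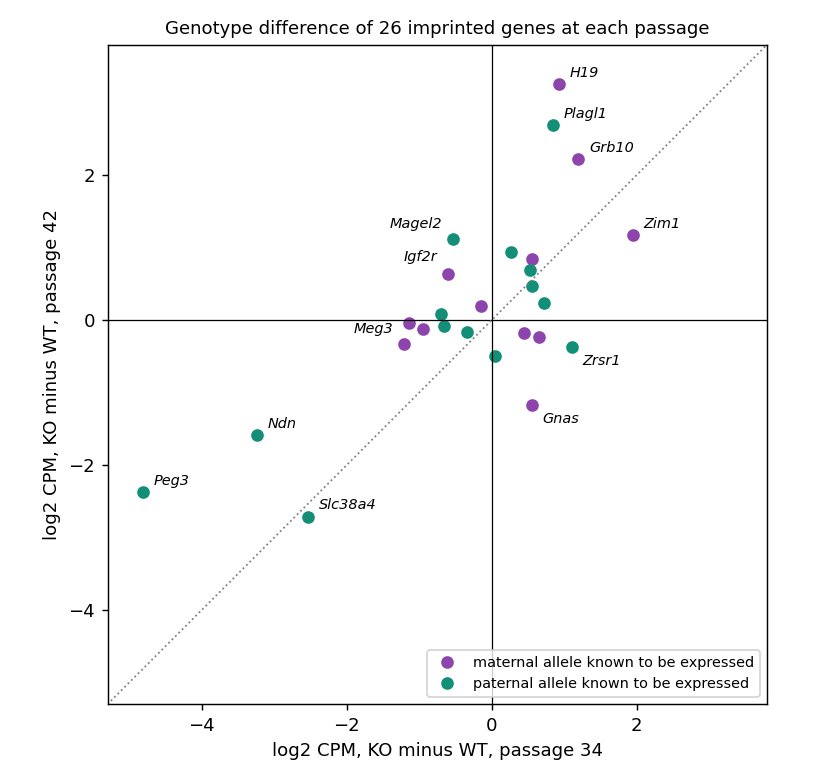
KO minus WT, in log2 CPM, of the 26 tested imprinted genes at passage 34 (horizontal) and passage 42 (vertical), with equal values on the dotted line. *Slc38a4* lay near the line at -2.53 and -2.71, *Peg3* and *Ndn* lay left of it and *H19*, *Grb10* and *Plagl1* above it.

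Between the passages, with genotype in the fit, 4 of the 26 genes passed (1 higher and 3 lower at passage 42), against 2.31% of all transcripts (1.77% higher and 0.541% lower). *Meg3* was higher at passage 42, at 114 CPM in KO and 144 CPM in WT, against 45.0 and 104 CPM at passage 34 (log2 fold change 0.90 ± 0.19, SE, edgeR's quasi-likelihood test, adjusted p = 7.28e-04). *Ndn* was lower at passage 42, at 0.466 CPM in KO and 1.65 CPM in WT, against 0.982 and 10.3 CPM at passage 34 (-2.10 ± 0.48, adjusted p = 0.00206). *Peg12* was also lower (-1.88 ± 0.42, adjusted p = 0.00134), with 1.55 CPM in KO and 1.46 CPM in WT at passage 42, against 4.36 and 7.13 CPM at passage 34. *Peg3* also passed (-1.30 ± 0.38, adjusted p = 0.0310), but its level was lower at passage 42 in WT only, and the call was lost when 1 CPM was required in all 4 libraries (adjusted p = 0.166). Passage and replicate number are the same in these labels and cannot be told apart.

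A list of 28 genes that keep imprints or handle DNA methylation was read in the same libraries. Of these 17 were tested and edgeR's quasi-likelihood test called 0, against 2.75% of all transcripts. At an unadjusted p under 0.05 there was 1, against 12.8% of all transcripts, and DESeq2 also called 0. With 17 genes and such shares, 0 calls do not show that the list was unchanged. Of the 28 genes 5 (*Setdb1*, *Uhrf1*, *Dnmt3b*, *Ehmt2* and *Ezh2*) had no reads on the ID read out, which is not shown to be absence of the gene. The median log2 fold change was -0.06. The 1 gene was *Yy1*, a zinc finger protein that binds the *Peg3* control region, at 117 and 125 CPM in KO and 90.3 and 81.5 CPM in WT (0.49 ± 0.20, adjusted p = 0.295). *Trim28* had a log2 fold change of 0.08 ± 0.20, *Zfp57* of -0.21 ± 0.45, the maintenance methyltransferase *Dnmt1* of 0.26 ± 0.35 and *Smchd1*, which acts in silencing of the inactive X chromosome and some imprinted genes, of -0.36 ± 0.20.

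A further list held 52 other imprinted genes or neighbours of imprinted domains, of which 31 were tested, 1 was higher in KO, 1 was lower and 29 did not pass, where 1.51% of all transcripts were higher and 1.24% lower. *Tfpi2*, a protease inhibitor near the *Peg10-Sgce* domain, passed the minimum level through KO only and had 65 and 59 reads in KO, against 12 and 9 reads in WT (log2 fold change 2.17 ± 0.47, SE, edgeR's quasi-likelihood test, adjusted p = 0.0315). *Qpct*, glutaminyl cyclase, had 73 and 77 reads in KO, against 157 and 163 reads in WT (-1.47 ± 0.33, adjusted p = 0.0394). The median over the 31 genes was 0.04.

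Within 500 kb of *Peg3*, *H19*, *Grb10* and *Slc38a4* lay 51 IDs of genes outside the list, of which 15 were tested. Their log2 fold changes were between -0.49 and 0.58. EdgeR's quasi-likelihood test called 0 of the 15, against 2.75% of all transcripts, and DESeq2 called 0. At an unadjusted p under 0.05 there were 0, against 12.8% of all transcripts. None of the 6 neighbours of *Grb10* had enough reads, so nothing can be said of its surroundings.

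Summed markers of other cell types overlapped between the genotypes for keratinocytes (12.6 to 15.9 CPM in KO, 11.9 to 13.9 in WT) and endothelial cells (9.52 to 10.5 in KO, 9.98 to 10.8 in WT). The same held for muscle (5.28 to 9.21 in KO, 6.55 to 8.14 in WT) and adipocytes (7.87 to 8.47 in KO, 7.38 to 12.2 in WT). Melanocyte markers overlapped as well (36.5 to 49.1 in KO, 34.8 to 42.4 in WT). *Tyr* made up most of that sum, at 40.1 and 29.9 CPM in KO and 26.3 and 35.0 CPM in WT. The summed immune markers were higher in both KO libraries (12.0 to 14.5 CPM, against 8.45 to 9.31 CPM in WT), of which *Csf1r*, a receptor of macrophages, made up 10.7 and 9.21 CPM in KO and 5.54 and 5.21 CPM in WT. *Csf1r* did not pass, and *Adgre1*, another macrophage marker, had a log2 fold change of -0.32. *Trp63* of keratinocytes, *Tek* of endothelial cells and *Cd68* of macrophages had no reads on the ID read out, which is not shown to be absence of the gene, since reads in exons shared by several IDs were not counted. The part of other cells in the differences above was not tested.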

How the data were processed

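The 4 deposited tables hold raw counts per RefSeq transcript. The authors trimmed adapters (cutadapt), aligned reads to mm9 with TopHat2 2.0.9 and counted those of a mapping quality above 20 with htseq-count. Other versions and the strand setting of the counts were not given in the sources used here. Second-strand cDNA was made with dUTP. Because each transcript ID was a feature of its own, reads in exons shared by IDs were left as ambiguous (12.1 to 13.4% of reads in the tables). Reads in no feature made up 49.9 to 56.5%. Both stayed out of library sizes. Groups, passages and replicates came from the sample labels.

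Symbols were matched to 32314 IDs through a RefSeq table of GRCm38.p6. The ID and name pairs of a supplementary list of the study gave 6 more IDs, among them *H19*. That list holds genes that the study called differentially expressed in these libraries, so *H19* was named from a list of genes already called. *Nespas* was matched by a synonym. Positions of genes came from GENCODE vM1 on NCBIM37, the assembly of mm9, and *Kcnq1ot1* and *Peg13* had none there.

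The test across all transcripts was edgeR 4.0.16 in R 4.3.3 (TMM, factors between 0.98 and 1.03, quasi-likelihood F-test, biological coefficient of variation 21.8%), over IDs with at least 1 CPM in both libraries of at least 1 genotype, with Benjamini-Hochberg adjustment and a threshold of 0.05. An SE is the fold change over the square root of F. Differences within a passage used a prior count of 2. The main fit held genotype alone. Alternatives were RLE size factors, library totals, other filters, the exact and likelihood ratio tests, DESeq2 1.42.0 and counts summed per gene. Further alternatives were a replicate block, which adds passage to the fit, and leaving out each library. An exact permutation test of 2 against 2 libraries cannot go below 0.333 and was not used, and a test of genotype by passage has no residual degrees of freedom. Genes were named as members of the list, and genes outside it where they passed the test or were picked by function, some after their values were seen. The members and the other lists were chosen with earlier results of these data known.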

Additional observations from a re-analysis of the deposited data

Results flagged for a closer look

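For 9 of the 26 tested genes KO lay above WT at one passage and below it at the other, which happened for 40.4% of all transcripts. With 1 library per genotype and passage the difference between the passages was not tested. In log2 CPM, KO minus WT was -0.61 at passage 34 and 0.64 at passage 42 for *Igf2r*, -0.53 and 1.12 for *Magel2*, -0.69 and 0.08 for *Peg12*, and -0.15 and 0.19 for *Ascl2*. The values were 0.55 and -1.17 for *Gnas*, 1.11 and -0.37 for *Zrsr1*, 0.66 and -0.23 for *Ppp1r9a*, 0.45 and -0.18 for *Ube3a*, and 0.05 and -0.50 for *Kcnq1ot1*. None of the 9 genes passed the test of genotype over both passages.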

How the results depend on the processing

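*Grb10*, *Peg3* and *Slc38a4* passed in all 13 alternatives that were run, *H19* in 10 of 13, *Plagl1* in 9 of 13 and *Ndn* in 8 of 12. Of 333 values of single genes, 289 kept their direction and side of the threshold, 26 passed only in the alternative, 3 no longer passed and 15 changed sign. No gene that changed sign passed in the main test. *Ascl2* turned to -0.0035 with RLE factors, -0.0071 with no filter and -0.012 with DESeq2. The other changes of sign came without 1 library, where the log2 fold change was -0.36 to 0.41 for *Ascl2*, -0.12 to 0.53 for *Ppp1r9a*, -0.55 to 0.58 for *Igf2r*, -0.10 to 1.24 for *Airn*, -0.59 to 1.28 for *Magel2*, -0.16 to 0.43 for *Ube3a*, -1.42 to 1.00 for *Peg12*, -1.17 to 0.54 for *Gnas*, -0.80 to 0.042 for *Mcts2* and -0.23 to 1.00 for *Zrsr1*.

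The 381 changed transcripts became 740 with no filter, 613 by the exact test, 638 by the likelihood ratio test and 156 to 1199 without 1 library. The 2 imprinted genes higher in KO became 1 both with 1 CPM in all 4 libraries and with counts added up by gene, and 1 to 4 without 1 library. The 2 lower genes became 2 to 6 without 1 library. The 320 transcripts that differed between passages became 145 with 1 CPM in all 4 libraries. The causes were not tested. The replicate numbers are the passages. The difference between the passages within KO correlated at 0.175 with that within WT, over the 13855 transcripts tested. The main fit left passage out because the study named no covariate for its own test. Without 1 library a genotype has a single library, assumed to vary like the other genotype. With the replicate block 1092 transcripts passed, among them 5 imprinted genes higher (*H19*, *Grb10*, *Plagl1*, *Zim1* and *Impact*) and 5 lower (*Slc38a4*, *Peg3*, *Ndn*, *Meg3* and *Rian*). Genes with few reads, such as *Ndn*, *Zim1* and *Asb4*, limit what this depth can show.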
